A study of Mus musculus with 12 samples.

Results

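The interleukin-1 family genes described here are 7 genes of the mouse genome: the receptor genes *Il1rl1*, *Il1r1* and *Il1rap*, the receptor antagonist gene *Il1rn*, and the cytokine genes *Il18*, *Il33* and *Il1a*. They were taken by symbol from a table of 55487 genes, and each symbol matched 1 identifier. The list was chosen from the family with the measured levels of these genes in the 4 treatment groups already known, so the values below are descriptions of these libraries and the adjusted p-values are no independent support. Of the 7 genes, 5 passed the filter on low counts and were tested among 13581 genes, while *Il33* and *Il1a* did not pass.

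The cells, called im-TEC, are tubular epithelial cells of the mouse kidney that were conditionally immortalized. All groups were expanded at 33 °C with interferon-γ at 10 ng/mL and then held at 37 °C without it for 7 days, which lowers the activity of the SV40 large T antigen that the line carries. Cells then received, for 48 h, TGFβ at 10 ng/mL with an inhibitor of NNMT, 50 µM 5-amino-1-methylquinolinium (the combined group), TGFβ alone, the inhibitor alone, or neither agent (control), with 3 libraries each. NNMT, nicotinamide N-methyltransferase, transfers a methyl group to nicotinamide. The labels do not say whether the 3 libraries of a group came from separate cultures, so the tests measure only the spread between these libraries. Gene counts per library were 2584117 in TGFβ replicate 3 and 7838352 to 11866903 in the other 11. The biological coefficient of variation was 0.112 in the combined group, 0.228 with TGFβ, 0.0885 with the inhibitor and 0.0657 in control.

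Interleukin-1 cytokines bind a ligand-specific receptor chain, which then recruits the shared chain IL1RAP, and the paired intracellular domains signal through MYD88 and IRAK kinases to NF-κB. IL1R1 is the receptor for interleukin-1α and -1β, and IL1RL1, also called ST2, is the receptor for interleukin-33. In the kidney, interleukin-33 and interleukin-1α are known as alarmins released from injured cells, and interleukin-18 is known as a product of injured tubules.

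Of the 7 listed genes, *Il1rl1* and *Il1rn* had the largest fold differences between groups, and both were highest with TGFβ alone. The 250 bases before their annotated starts are shown because the levels of these 2 genes moved together over the 12 libraries (Pearson r = 0.934). Sequences are from the RefSeq promoter table (GRCm38.p6, plus strand), 5′ to 3′: *Il1rl1* start 1 lies at chr1:40429320-40429569, *Il1rl1* start 2 at chr1:40439379-40439628, and *Il1rn* start 1 at chr2:24336610-24336859. Capitals mark a match to the AP-1 motif TGANTCA.
Il1rl1 start 1: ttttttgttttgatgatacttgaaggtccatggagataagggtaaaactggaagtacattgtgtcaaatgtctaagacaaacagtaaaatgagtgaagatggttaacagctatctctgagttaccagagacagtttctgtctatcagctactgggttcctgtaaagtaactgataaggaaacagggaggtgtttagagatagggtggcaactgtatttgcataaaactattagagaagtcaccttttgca
Il1rl1 start 2: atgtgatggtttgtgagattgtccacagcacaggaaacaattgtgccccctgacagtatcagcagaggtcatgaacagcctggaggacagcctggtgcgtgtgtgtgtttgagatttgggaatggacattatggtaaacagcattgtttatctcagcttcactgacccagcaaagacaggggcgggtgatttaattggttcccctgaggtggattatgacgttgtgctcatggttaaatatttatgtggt
Il1rn start 1: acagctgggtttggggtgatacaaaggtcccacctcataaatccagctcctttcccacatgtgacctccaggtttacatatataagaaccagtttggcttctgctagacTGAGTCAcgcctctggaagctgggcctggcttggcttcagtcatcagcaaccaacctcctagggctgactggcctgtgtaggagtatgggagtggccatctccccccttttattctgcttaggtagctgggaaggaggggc

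The table holds 3 starts of *Il1rn*, of which the first is shown because it has an AP-1 match, and the other two have none. This match is 1 of 2 AP-1 matches among the 12 windows of the 7 genes, the other being in *Il1a*, while 6.75% of all 32851 windows of this length hold one. Neither *Il1rl1* window holds a match. Letters of an NF-κB motif were found in 4 of the 12 windows, against 45.8% of all windows. E-box letters (CANNTG) were found in 10 of the 12, against 66.2%. SMAD (CAGACA) and STAT (TTCNNNGAA) letters were found in 0 of the 12, against 17.1% and 7.02% of all windows. Both strands were searched, and a match can overlap one of another motif. Libraries that read transcript ends do not show which start was used.

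*Il1rl1* (ENSMUSG00000026069) encodes the interleukin-33 receptor ST2, which exists as a membrane form and, from a shorter transcript, as a soluble decoy. Its counts were 51, 38 and 26 in the combined libraries, 463, 490 and 134 with TGFβ, 8, 0 and 2 with the inhibitor, and 1, 14 and 15 in control. As CPM (counts scaled to library size and composition) these were 5.90, 4.27 and 3.43 in the combined group, 49.9, 43.4 and 51.3 with TGFβ, 0.881, 0 and 0.218 with the inhibitor, and 0.112, 1.69 and 1.51 in control. All 3 TGFβ libraries lay above every other library, the combined libraries lay between, and the inhibitor and control libraries overlapped near the detection limit.

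The mean level of *Il1rl1* was 48.2 ± 4.20 CPM with TGFβ and 1.11 ± 0.866 CPM in control (SD, n = 3 each), a log2 fold change of 5.42 ± 0.45 (SE; 42.9-fold, adjusted p = 3.75e-07). With both agents it was 4.54 ± 1.26 CPM (SD, n = 3), which was 10.5-fold lower than with TGFβ alone (log2 fold change -3.39 ± 0.37, adjusted p = 6.83e-05). The combined level was still 4.08-fold above control (2.03 ± 0.52, adjusted p = 0.00772). With the inhibitor alone the gene had 0.366 ± 0.459 CPM (SD, n = 3), and its difference from control did not pass the test (-1.53 ± 0.81, adjusted p = 0.304).

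The order of the *Il1rl1* levels was TGFβ, combined, control and inhibitor, and only the last neighbours did not differ beyond their spread. TGFβ raised the gene in inhibitor-treated cells as well, by 11.8-fold (3.56 ± 0.64, adjusted p = 0.000533), and that log2 value was 5.16 without inhibitor replicate 1, the library that held 8 of the 10 counts of its group. The interaction, which is the inhibitor effect under TGFβ minus that without it, was -1.86 on the log2 scale (95% interval -3.90 to 0.17, adjusted p = 0.569). An unequal inhibitor effect was not shown for *Il1rl1*, of which the groups without TGFβ held 10 counts (inhibitor) and 30 counts (control). The GENCODE annotation lists 5 coding transcripts of the gene with 5 distinct 3′ ends, and counts per gene do not separate soluble from membrane ST2. In bulk RNA, fewer cells with a transcript and less of it per cell cannot be told apart.

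*Il1rn* (ENSMUSG00000026981) encodes the interleukin-1 receptor antagonist, which occupies IL1R1 without signalling. It had 15, 13 and 6 counts in the combined libraries, 98, 61 and 34 with TGFβ, 3, 1 and 1 with the inhibitor, and 8, 3 and 5 in control. Every TGFβ library was above every combined library, at 5.40 to 13 CPM with TGFβ against 0.792 to 1.74 CPM in the combined group. The inhibitor libraries, at 0.109 to 0.330 CPM, all lay below the control libraries, at 0.363 to 0.893 CPM.

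*Il1rn* rose 15.4-fold with TGFβ over control (9.66 ± 3.88 CPM with TGFβ and 0.587 ± 0.274 CPM in control, SD, n = 3 each; log2 fold change 3.95 ± 0.48, adjusted p = 2.9e-06). The combined group was 6.85-fold lower than with TGFβ (1.33 ± 0.485 CPM, SD, n = 3; -2.78 ± 0.43, adjusted p = 0.000366) and 6.73-fold higher than with the inhibitor alone (2.75 ± 0.67, adjusted p = 0.00332). The inhibitor group had 0.186 ± 0.125 CPM (SD, n = 3), and the log2 value against it was 3.41 without inhibitor replicate 1. Neither the combined group (1.17 ± 0.54, adjusted p = 0.111) nor the inhibitor alone (-1.58 ± 0.76, adjusted p = 0.235) passed the test against control. The order was TGFβ, combined, control and inhibitor, as for *Il1rl1*, with only the first step past the threshold. Its interaction was -1.20 (95% interval -3.22 to 0.82, adjusted p = 0.75).

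With all libraries thinned to the depth of the shallowest, *Il1rl1* kept its calls with TGFβ over control and in the combined group against TGFβ, with log2 fold changes of 6.20 and -3.08, and had 3.11 in the combined group against control. *Il1rn* lost its calls in the combined group at that depth, with -2.85 against TGFβ (adjusted p = 0.0522) and 1.90 against the inhibitor (adjusted p = 0.248).

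Of 7 fibroblast markers 2 were tested (*Col1a1*, *Pdgfrb*) and *Pdgfra*, *Lum* and *Thy1* had 0 counts. The summed level was 35.4 to 46.6 CPM in the combined libraries, 150 to 187 with TGFβ, 3.19 to 5.21 with the inhibitor and 3.63 to 7.37 in control. *Col1a1* made up most of that sum, at 165 CPM with TGFβ, where *Pdgfrb* had 5.75 CPM. *Dcn* had 0 counts in the combined group, 1 with TGFβ, 5 with the inhibitor and 4 in control. *Col3a1* had 0, 8, 0 and 1 in the same order. The sum and the tested 2 moved with *Il1rl1* and *Il1rn*, and *Dcn* did not. The part of these markers in the *Il1rl1* and *Il1rn* results was not tested.

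**Figure D1:**
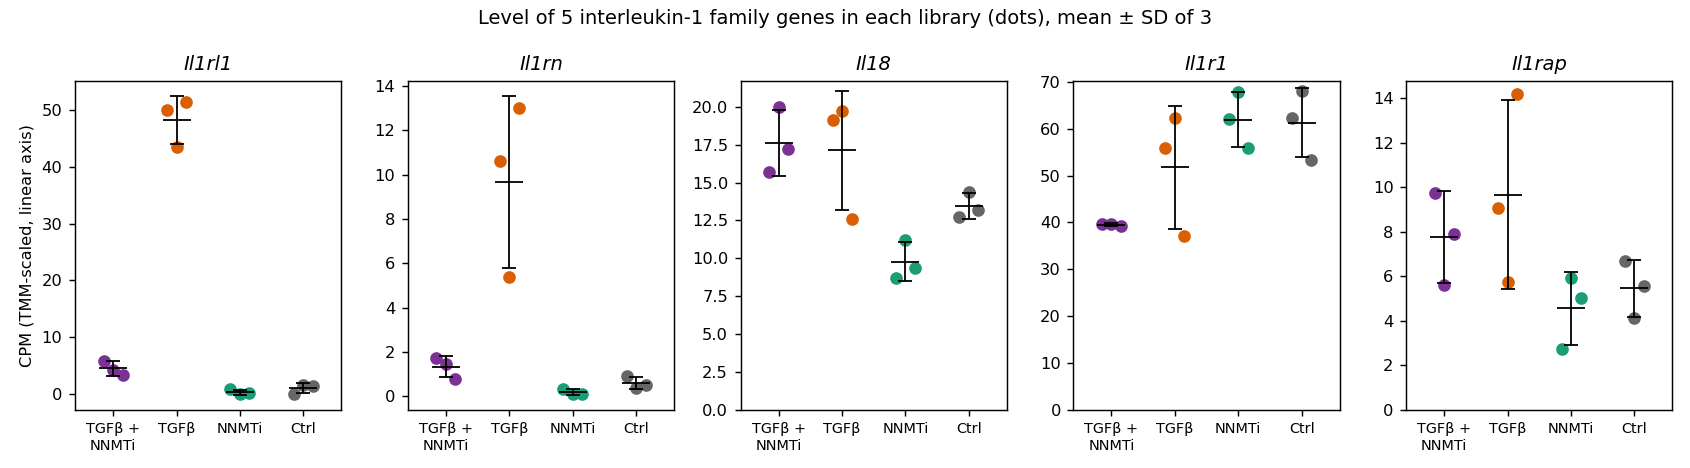
Level of the 5 tested genes in each library, in CPM on a linear axis that differs between panels, with dots for libraries and bars for mean ± SD of 3. For *Il1rl1* and *Il1rn* the TGFβ libraries stand above the other 9, whereas for *Il1r1* the combined libraries lie between 39.2 and 39.7 CPM and all inhibitor and control libraries lie above them.

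*Il1r1* (ENSMUSG00000026072), the signalling receptor of interleukin-1α and -1β, differed the other way. Its level was 39.7, 39.7 and 39.2 CPM in the combined libraries, 55.8, 62.4 and 37.1 CPM with TGFβ, 62.1, 67.8 and 56.0 CPM with the inhibitor, and 62.4, 68.0 and 53.4 CPM in control. The combined libraries were below every inhibitor and control library, and TGFβ replicate 3, the shallowest library, lay below all others. The gene fell 1.55-fold in the combined group against control (39.5 ± 0.268 CPM combined and 61.3 ± 7.37 CPM in control, SD, n = 3 each; log2 fold change -0.63 ± 0.15, adjusted p = 0.0031) and 1.57-fold against the inhibitor alone (-0.65 ± 0.15, adjusted p = 0.00219).

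Neither agent alone moved *Il1r1* past the threshold, with TGFβ at -0.21 ± 0.15 (adjusted p = 0.306) and the inhibitor at 0.02 ± 0.15 (adjusted p = 0.97). The interaction was -0.44 (95% interval -0.86 to -0.03, adjusted p = 0.479). That interval is a normal approximation and leaves out 0, whereas the edgeR F-test gave an unadjusted p of 0.0504. The combined group against TGFβ gave -0.43 ± 0.15 (adjusted p = 0.0814). Without TGFβ replicate 3 that value was -0.58 (adjusted p = 0.0051). The order of its levels was inhibitor, control, TGFβ and combined, and no neighbours in that order differed past the threshold. *Gm38070* overlaps *Il1r1* on the same strand, so reads could be split between them, and it had 5.17 ± 0.153 CPM in the combined group, 6.40 ± 2.03 CPM with TGFβ, 8.24 ± 0.908 CPM with the inhibitor and 8.92 ± 0.779 CPM in control (SD, n = 3 each).

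*Il1rap* (ENSMUSG00000022514) encodes the accessory chain shared by IL1R1 and ST2. It had 9.72, 5.62 and 7.92 CPM in the combined libraries, 9.05, 5.76 and 14.2 CPM with TGFβ, 2.75, 5.91 and 5.02 CPM with the inhibitor, and 6.70, 4.12 and 5.54 CPM in control. The groups overlapped in every comparison, and none passed the main edgeR test. The mean was 7.75 ± 2.06 CPM in the combined group, 9.65 ± 4.23 CPM with TGFβ, 4.56 ± 1.63 CPM with the inhibitor and 5.45 ± 1.29 CPM in control (SD, n = 3 each), so no neighbours in the order of levels differed past the threshold. The largest values were 0.77 ± 0.34 for the combined group against the inhibitor (adjusted p = 0.0846) and 0.71 ± 0.34 for TGFβ against control (adjusted p = 0.112). Limma voom, which gave TGFβ replicate 2 a quality weight of 0.146, called both (adjusted p = 0.0272 for the first and 0.0129 for the second). EdgeR called the first without the filter (adjusted p = 0.0331) and with only the 2 groups in the fit (adjusted p = 0.0368). The second was 1.00 (adjusted p = 0.0155) without TGFβ replicate 2. *Gm20319*, which overlaps *Il1rap* on the opposite strand, had 0 counts.

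*Il18* (ENSMUSG00000039217) encodes a cytokine that caspase-1 cleaves to its active form. Its level was 15.7, 20.0 and 17.2 CPM in the combined libraries, 19.1, 19.7 and 12.6 CPM with TGFβ, 8.70, 11.2 and 9.39 CPM with the inhibitor, and 12.7, 14.4 and 13.2 CPM in control. Every combined library lay above every inhibitor and control library, and every inhibitor library lay below every control library. The gene rose 1.81-fold in the combined group over the inhibitor alone (17.6 ± 2.17 CPM combined and 9.78 ± 1.31 CPM with the inhibitor, SD, n = 3 each; log2 fold change 0.85 ± 0.18, adjusted p = 0.00123). At the depth of the shallowest library the value was 0.44 (adjusted p = 0.467).

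The other comparisons of *Il18* did not pass in edgeR. TGFβ against control gave 0.40 ± 0.18 (adjusted p = 0.0928) and the inhibitor against control -0.46 ± 0.19 (adjusted p = 0.148), and limma voom called both (adjusted p = 0.0278 and 0.0492). The combined group gave -0.01 ± 0.18 against TGFβ (95% interval -0.36 to 0.34, adjusted p = 0.98) and 0.39 ± 0.18 against control (adjusted p = 0.103). Without TGFβ replicate 3, TGFβ against control was 0.53 (adjusted p = 0.0223). The order was combined, TGFβ, control and inhibitor, and no neighbours differed past the threshold. *Bco2* and *Tex12* overlap *Il18* on the opposite strand and had at most 0.775 CPM in any group mean. The strand setting of the counting is not given, so reads of a gene and its opposite-strand partner cannot be told apart.

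*Il33* (ENSMUSG00000024810), the ST2 ligand, had 1 count in all, in TGFβ replicate 2, and *Il1a* (ENSMUSG00000027399), which encodes interleukin-1α, had 0 counts in the 12 libraries. Counting error alone allows up to 0.119 CPM in the combined group, 0.129 CPM with TGFβ, 0.112 CPM with the inhibitor and 0.111 CPM in control for a gene without a count (3 counts over the 3 libraries). A level of *Il1a* below these limits could not be told apart from 0 at this depth, and none above them was detected. The receptor transcripts *Il1rl1* and *Il1r1* were measured in cultures in which transcripts of these ligands were at or under the limit.

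The counts of called family genes were read against the share of all tested genes called in the same comparison. With TGFβ against control, 2 of the 5 tested genes were called, both higher, where 36.5% of all tested genes were called (19.4% higher and 17.1% lower). With the inhibitor against control, 0 of 5 were called by edgeR, where 8.27% of all genes were (2.47% higher and 5.80% lower); 1 had an unadjusted p below 0.05, DESeq2 called 0 and limma voom called 1. For the combined group against TGFβ, 2 of 5 were called, both lower, where 10.4% of all genes were (3.45% higher and 6.97% lower).

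The combined group against the inhibitor gave 4 of 5, with 3 higher and 1 lower, where 36.3% of all genes were called (18% higher and 18.3% lower). Against control it gave 2 of 5, 1 higher and 1 lower, where 31.8% were called (15.3% higher and 16.5% lower). The interaction gave 0 of 5 by edgeR, DESeq2 and limma voom, with 0 at an unadjusted p below 0.05, where edgeR called 1.11% of all genes. The inhibitor comparisons within TGFβ and the TGFβ comparisons share libraries, so they are set side by side and not counted as separate evidence.

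The median log2 fold change of the 5 tested genes was 0.71 with TGFβ against control, where the median of all tested genes was 0.017. It was -0.46 with the inhibitor against control (all genes 0.0074), -0.43 in the combined group against TGFβ (all genes -0.022), 0.85 against the inhibitor (all genes -0.0025) and 0.50 against control (all genes 0.028). Libraries of the 2 groups did not overlap for 2 of 5 genes with TGFβ against control (45.4% of all genes), 2 of 5 with the inhibitor against control (35.6%) and 2 of 5 in the combined group against TGFβ (23.9%). They did not overlap for 4 of 5 in the combined group against the inhibitor (52.1%) and 3 of 5 against control (51.9%).

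**Figure D2:**
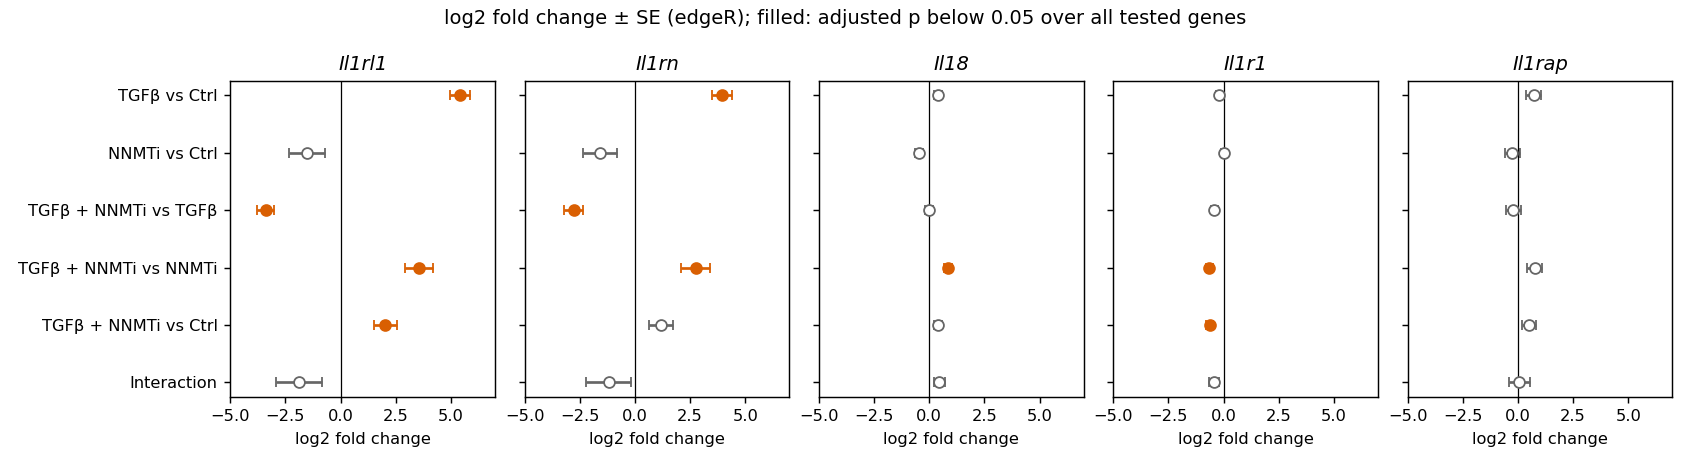
Log2 fold change ± SE of the 5 tested genes (panels) in each comparison (rows), on the horizontal axis, filled where the adjusted p over all tested genes was below 0.05. *Il1rl1* has filled points in 4 of the 6 comparisons, *Il1rn* in 3, *Il1r1* in 2, *Il18* in 1 and *Il1rap* in 0.

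The receptor genes of the family lie side by side on mouse chromosome 1, in the order *Il1r2*, *Il1r1*, *Il1rl2*, *Il1rl1*, *Il18r1* and *Il18rap*. *Il18rap*, the accessory chain of the interleukin-18 receptor, had 4, 9 and 6 counts in the combined libraries, 41, 101 and 16 with TGFβ, 0, 0 and 0 with the inhibitor, and 1, 1 and 4 in control. Its pattern over the groups had the same order as that of *Il1rl1*. It rose 28.1-fold with TGFβ over control (6.49 ± 2.29 CPM with TGFβ and 0.212 ± 0.166 CPM in control, SD, n = 3 each; log2 fold change 4.81 ± 0.58, adjusted p = 6.05e-06).

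Without control replicate 3, which held 4 of the 6 control counts, the log2 value of *Il18rap* with TGFβ was 5.65. *Il18rap* was 8.53-fold lower in the combined group than with TGFβ (0.756 ± 0.276 CPM combined, SD, n = 3; -3.09 ± 0.49, adjusted p = 0.000707), a call that was lost at the depth of the shallowest library (adjusted p = 0.237). The inhibitor group had no count, and the combined level was 6.73-fold its floor of 3 counts over the group. That ratio leaves out the counting error of the 19 combined counts. The edgeR call for this comparison (adjusted p = 0.00151) was lost at the depth of the shallowest library (adjusted p = 0.0844).

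The 3 other genes of the cluster were near 0. *Il1r2*, the decoy receptor of interleukin-1, had 1 count in all, *Il1rl2*, the interleukin-36 receptor, had 1, and *Il18r1*, the ligand-binding chain for interleukin-18, had 9, of which 7 were with TGFβ. *Map4k4*, the annotated gene before *Il1r2*, had 637 ± 59 CPM in the combined group, 497 ± 124 CPM with TGFβ, 466 ± 28.4 CPM with the inhibitor and 443 ± 8.66 CPM in control (SD, n = 3 each). Its log2 fold change was 0.16 ± 0.14 with TGFβ against control (adjusted p = 0.397), and it was called in the combined group against the inhibitor (0.45 ± 0.14, adjusted p = 0.0163) and against control (0.52 ± 0.14, adjusted p = 0.00745). *Slc9a4*, the gene after *Il18rap*, had 0 counts. *Il1rl1* and *Il18rap*, the cluster's genes that rose with TGFβ, lie on either side of *Il18r1*.

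**Figure D3:**
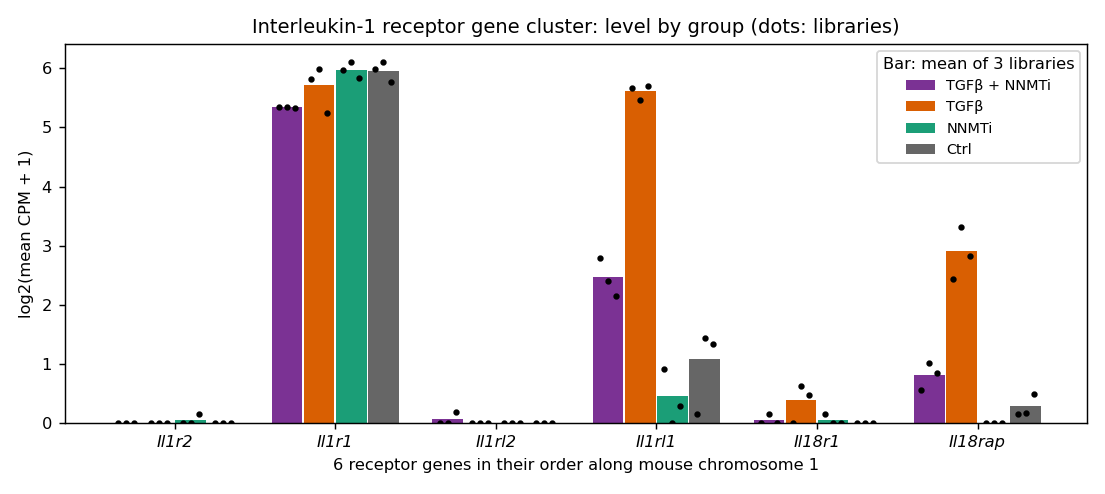
Level of the 6 receptor genes in their order on chromosome 1 (horizontal axis), as log2(mean CPM + 1) for each group (bars) and log2(CPM + 1) for each library (dots). *Il1rl1* and *Il18rap* have their tallest bar with TGFβ, at 48.2 and 6.49 CPM, and *Il1r1* has its shortest bar in the combined group, at 39.5 CPM.

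A list of 66 other genes of the interleukin-1, interleukin-18 and interleukin-33 pathways gave the setting of these changes. All 66 were matched and 40 passed the filter. Of the 40, 14 were called with TGFβ against control (9 higher, 5 lower), which is 35%, close to the 36.5% of all genes. With the inhibitor against control 8 were called, all lower (20%), against 8.27% of all genes, with 5.80% lower. In the combined group against TGFβ 9 were called, 1 higher and 8 lower (22.5%), against 10.4% of all genes, with 3.45% higher and 6.97% lower. The list was chosen with earlier results of these data known, so these shares are descriptions only. With both agents 13 were called against the inhibitor (8 higher, 5 lower) and 13 against control (5 higher, 8 lower), each 32.5%, close to the 36.3% and 31.8% of all genes. By edgeR 0 were called for the interaction, with 10 at an unadjusted p below 0.05, while DESeq2 called 2 and limma voom 4. The median log2 fold change of the 40 was 0.18 with TGFβ (all genes 0.017) and -0.13 with the inhibitor (all genes 0.0074), each against control. For both agents it was -0.24 against TGFβ (all genes -0.022), 0.025 against the inhibitor (all genes -0.0025) and -0.039 against control (all genes 0.028). The medians that involve the inhibitor group did not change where *Il18rap* was set to its value at the floor of 3 counts.

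None of the 6 other ligand genes passed the filter. *Il1b*, which encodes interleukin-1β, had 0 counts in the 12 libraries, and *Il36b* had 3 in all. Of the other receptors, *Sigirr*, which restrains interleukin-1 receptor signalling, had 2.08, 0.787 and 1.85 CPM in the combined libraries, 3.12, 4.52 and 2.30 CPM with TGFβ, 2.53, 4.50 and 4.26 CPM with the inhibitor, and 7.48, 7.02 and 10.2 CPM in control. All treated libraries lay below the control libraries.

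*Sigirr* fell 2.32-fold with TGFβ (-1.22 ± 0.34, adjusted p = 0.00781), 2.19-fold with the inhibitor (-1.13 ± 0.32, adjusted p = 0.036) and 5.24-fold with both (-2.39 ± 0.36, adjusted p = 4.38e-05), each against control. The call for the inhibitor alone was lost without any 1 of the 6 libraries of its comparison. At the depth of the shallowest library, *Sigirr* had -1.91 with TGFβ (adjusted p = 0.0593) and -1.05 with the inhibitor (adjusted p = 0.594), so both calls were lost. With TGFβ *Sigirr* fell while *Il1rl1* and *Il1rn* rose, and its value in the combined group against TGFβ was -1.17 ± 0.39 (adjusted p = 0.0638).

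Among the 11 genes for maturation and release, 6 were tested and 2 were called with TGFβ against control, both higher, where 36.5% of all genes were called. *Casp4*, the mouse caspase-11 gene, had 5.56, 4.61 and 2.77 CPM in the combined libraries, 9.80, 9.65 and 9.95 CPM with TGFβ, 3.30, 2.37 and 1.86 CPM with the inhibitor, and 4.35, 3.51 and 4.84 CPM in control. The TGFβ libraries stood above all others. It rose 2.30-fold with TGFβ over control (1.20 ± 0.28, adjusted p = 0.00231) and was 2.25-fold lower in the combined group than with TGFβ (-1.17 ± 0.28, adjusted p = 0.012; adjusted p = 0.0616 without combined replicate 3 and 0.167 at the depth of the shallowest library).

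*Il18bp*, the secreted inhibitor of interleukin-18, rose 2.17-fold with TGFβ over control (1.12 ± 0.29, adjusted p = 0.00557; adjusted p = 0.202 at the depth of the shallowest library), and its difference between the combined group and TGFβ did not pass (-0.69 ± 0.29, adjusted p = 0.138). *Casp1*, which cleaves pro-interleukin-18, was called in the combined group against control (-0.92 ± 0.27, adjusted p = 0.0149). That call was lost without combined replicate 1 (adjusted p = 0.0844) and without control replicate 1 (adjusted p = 0.0678). It was also lost at the depth of the shallowest library (-0.37, adjusted p = 0.7). *Gsdme*, a pore-forming gasdermin, was called in the combined group against the inhibitor (-0.52 ± 0.20, adjusted p = 0.0478), a call lost without any 1 of those 6 libraries. *Pycard*, *Gsdmd*, *Nlrp3*, *Nlrc4* and *Aim2*, genes of inflammasome assembly and pore formation, had 0 counts.

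Of 17 tested signalling genes, 2 were called with TGFβ against control, both higher, where 36.5% of all genes were called. *Irak2*, a MYD88-bound kinase family member, had 61.1, 55.4 and 65.2 CPM in the combined libraries, 51.4, 68.8 and 51.3 CPM with TGFβ, 20.9, 23.8 and 19.2 CPM with the inhibitor, and 31.8, 32.7 and 35.1 CPM in control. Both TGFβ-treated groups overlapped each other and lay above the others. *Irak2* rose 1.74-fold with TGFβ over control (0.80 ± 0.14, adjusted p = 0.000142) and fell 1.56-fold with the inhibitor against control (-0.64 ± 0.14, adjusted p = 0.00704; adjusted p = 0.0501 without inhibitor replicate 3 and 0.0573 at the depth of the shallowest library).

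*Irak2* in the combined group was near the TGFβ level (0.07 ± 0.13, adjusted p = 0.786), unlike the values of *Il1rl1* in the same libraries. *Ube2n*, a ubiquitin-conjugating enzyme that acts with TRAF6, rose 1.52-fold with TGFβ over control (0.61 ± 0.14, adjusted p = 0.00195; 0.41, adjusted p = 0.332 at the depth of the shallowest library) and was lower in the combined group than with TGFβ (-0.46 ± 0.14, adjusted p = 0.0408). That last call was lost without any 1 of 5 of those 6 libraries. *Tab2*, an adaptor of the TAK1 kinase, was higher in the combined group than in control (0.33 ± 0.12, adjusted p = 0.0374; adjusted p = 0.0751 to 0.156 without any 1 of 5 of those 6 libraries). By edgeR the core genes *Myd88*, *Irak4* and *Traf6* were called in no comparison, and neither was *Peli2*, a ubiquitin ligase for IRAK1 (smallest adjusted p = 0.0554). With the inhibitor against control, *Myd88* was called by DESeq2 (-0.50, adjusted p = 0.0478) and by limma voom (-0.50, adjusted p = 0.00883). With TGFβ against control, *Peli2* was called by voom (adjusted p = 0.0131) and without control replicate 1 (adjusted p = 0.0348).

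Of the 24 target genes 15 were tested, and 8 were called with TGFβ against control, 4 higher and 4 lower, where 19.4% of all genes were called higher and 17.1% lower. *Ptgs2*, which encodes cyclooxygenase-2, had 4.86, 3.48 and 4.89 CPM in the combined libraries, 15, 12.8 and 18.4 CPM with TGFβ, 0.440, 0.828 and 1.42 CPM with the inhibitor, and 1.12, 0.121 and 1.61 CPM in control. The order of the TGFβ and combined groups was that of *Il1rl1*. *Ptgs2* rose 15.1-fold with TGFβ over control (3.92 ± 0.43, adjusted p = 1.09e-06) and was 3.42-fold lower in the combined group than with TGFβ (-1.77 ± 0.36, adjusted p = 0.00438; -1.86, adjusted p = 0.113 at the depth of the shallowest library).

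*Vcam1*, a leukocyte adhesion molecule, had levels of 43.9, 43.4 and 41.2 CPM in the combined libraries, 120, 93.8 and 77.7 CPM with TGFβ, 79.2, 75.1 and 69.2 CPM with the inhibitor, and 238, 242 and 239 CPM in control. All control libraries lay above all treated ones. *Vcam1* fell 2.44-fold with TGFβ (-1.29 ± 0.12, adjusted p = 1.63e-07), 3.22-fold with the inhibitor (-1.69 ± 0.12, adjusted p = 6.66e-08) and 5.59-fold with both (-2.48 ± 0.13, adjusted p = 4.07e-11), each against control.

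The neutrophil chemokine *Cxcl1*, like *Vcam1*, was highest in control and lowest in the combined group. Its TGFβ and inhibitor means had the reverse order of those of *Vcam1*, and for both genes the libraries of these groups overlapped. *Cxcl1* had 7.46 ± 0.407 CPM in the combined group, 19.9 ± 8.63 CPM with TGFβ, 21.9 ± 2.00 CPM with the inhibitor and 46.4 ± 1.14 CPM in control (SD, n = 3 each). It fell 2.45-fold with TGFβ (adjusted p = 0.000525) and 2.12-fold with the inhibitor (adjusted p = 0.00765), each against control. *Cxcl5*, another neutrophil chemokine, had 3 counts over the combined libraries, 17 with TGFβ, 93 with the inhibitor and 327 in control, and it fell 16.3-fold with TGFβ against control (-4.02 ± 0.43, adjusted p = 7.35e-07). Listed targets of interleukin-1 included both genes that rose with *Il1rl1* under TGFβ and genes that fell.

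**Figure D4:**
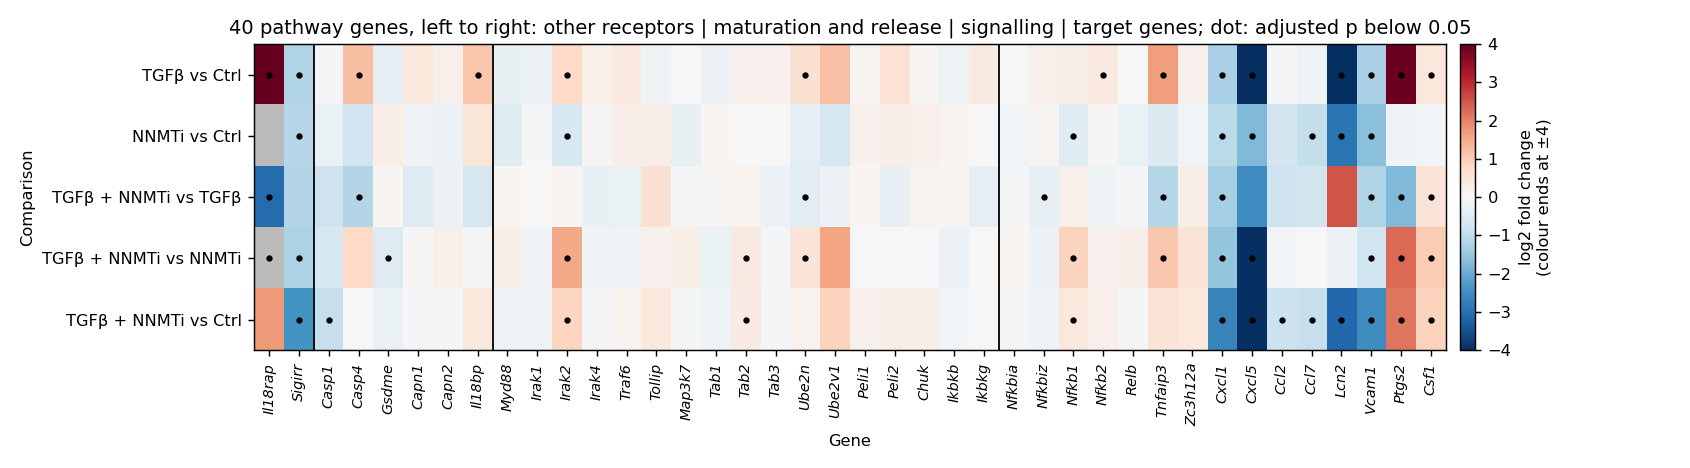
Log2 fold change of the 40 tested pathway genes (columns, by role) in 5 comparisons (rows), with red higher, blue lower, the colour ending at 4 on either side, and a dot where the adjusted p was below 0.05. Grey marks the comparisons of *Il18rap* with the inhibitor group, which had no count, and *Vcam1* and *Cxcl1* are blue with a dot in all 5 rows.

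Among genes with a mean of at least 10 CPM, those that correlated most with *Il1rl1* over the 12 libraries were *Rab10* (Pearson r = 0.974), *Mgll* (0.968) and *Zbp1* (0.967). Pearson r compares the shape of a pattern and not the size of a change. *Rab10* had 253 CPM in the combined group, 314 CPM with TGFβ, 201 CPM with the inhibitor and 219 CPM in control. *Zbp1*, a sensor of nucleic acids in the Z form, had 12.9 CPM in the combined group, 51.8 CPM with TGFβ, 1.63 CPM with the inhibitor and 3.69 CPM in control. For *Il1rn* they were *Ltv1* (0.968), *Mrpl36* (0.964) and *Cpsf2* (0.964), for *Il18* *Homer3* (0.945), *Myo9b* (0.943) and *Smn1* (0.942), for *Il1r1* *Epb41* (0.939), *Tmem94* (0.931) and *Samd9l* (0.922), and for *Il1rap* *Cab39* (0.968), *Vapa* (0.920) and *Nap1l1* (0.914). *Cab39* likewise differed little in size, at 57.7 CPM in the combined group, 58.5 CPM with TGFβ, 50.3 CPM with the inhibitor and 52.3 CPM in control. These correlations describe 12 libraries that share 4 treatments and were the highest of 9167 or 9168 genes compared.

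Of 15 tubular epithelial markers 10 were tested, among them *Cdh16*, *Pax2*, *Pax8* and *Lrp2*, while *Epcam* and *Slc34a1* had 0 counts, *Hnf4a* 3 and *Cdh1* 9, so the labelled cell type was only partly reflected. All 5 mast cell markers had 0 counts, and of 5 endothelial markers none was tested. Of 10 leukocyte markers 3 were tested (*Cd68*, *Csf1r*, *Fcer1g*) and *Adgre1*, *Tyrobp* and *Cd79a* had 0 counts. Their summed level was 29.1 to 32.8 CPM in the combined libraries, 48.8 to 61.7 with TGFβ, 60.7 to 72.4 with the inhibitor and 75.5 to 80.1 in control. *Csf1r* made up most of that sum, and *Fcer1g* had another order, at 2.49 CPM in the combined group, 4.38 CPM with TGFβ, 1.02 CPM with the inhibitor and 1.19 CPM in control, which is the order of *Il1rl1*. The part of these markers in the results was not tested.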

How the data were processed

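Per the labels' protocols, total RNA (100 ng) from cells in 6-well plates gave QuantSeq 3′ FWD libraries of transcript ends. Per the submitters' processing notes, STAR and HTSeq were used and the build named is GRCh38, which is human, while the identifiers are mouse. The strand setting and versions are not given in the sources used here. Gene positions are therefore not given, and promoter positions are those of the RefSeq table. The authors deposited raw counts per gene, and the HTSeq summary lines were left out (21.8% to 27.4% of reads per library).

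Counts were filtered (filterByExpr), TMM-scaled and tested with edgeR 4.0.16 (limma 3.58.1, R 4.3.3) by robust quasi-likelihood F-tests in 1 model of 4 group means, with Benjamini-Hochberg adjustment over 13581 genes and calls below 0.05. The 7 genes and the pathway and marker lists were chosen with earlier results of these data known. All 7 were named, and of the pathway list the 4 genes per role with the smallest adjusted p, plus *Myd88*, *Irak4*, *Traf6*, *Il1b* and *Il1r2*. *Lcn2* and others that passed the filter are shown in the heat map. Pearson correlations used log2 CPM with a prior count of 3. Floors cover counting error only. The 95% intervals are a normal approximation from the SE of the edgeR fit and include the spread between libraries. They can be narrower than the F-tests imply. Scripts were tested on simulated data. DESeq2 1.42.0, voom with quality weights, other scalings and filters, a replicate block, thinned counts and leaving out each library were alternatives. The lowest quality weight was 0.146, for TGFβ replicate 2.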

Additional observations from a re-analysis of the deposited data

How the results depend on the processing

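Among the 5 tested genes, 460 values under an alternative kept their side of the threshold, 12 gained a call, 3 lost one and 0 reversed. For the tested pathway genes named above with their values, these numbers were 1522, 31, 62 and 0. Most of those were named for their small adjusted p, and the other tested pathway genes were not tallied. Direction was compared only where the main fit or the alternative called the gene. Family genes called with TGFβ against control were 2, 4 with voom, and 3 without TGFβ replicate 2 or without TGFβ replicate 3. With the inhibitor against control they were 0, and 1 without the filter or with voom. At the depth of the shallowest library, 1 rather than 2 was called in the combined group against TGFβ and 2 rather than 4 against the inhibitor. Without the filter or with voom, 3 were called against TGFβ and 5 against the inhibitor. Leaving out TGFβ replicate 3 also gave 3 against TGFβ, and fitting only the 2 groups gave 5 against the inhibitor.

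Pathway genes called for the interaction were 0, but 4 without the filter, 2 with DESeq2, 4 with voom and 0 to 3 leaving out 1 library. With the inhibitor against control 8 became 2 at the shallowest depth, 14 with voom, 13 with only the 2 groups in the fit and 4 to 6 leaving out 1 library. In the combined group against TGFβ 9 became 3 at the shallowest depth, 3 with only the 2 groups and 5 to 11 leaving out 1 library. At the shallowest depth 13 became 6 against the inhibitor and 8 against control, and 14 became 11 with TGFβ against control.

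Of all genes, 4961 were called with TGFβ against control (2556 at the shallowest depth). With the inhibitor against control 1123 were called (291 at that depth, 3064 with voom, 2989 with only the 2 groups, 593 to 668 leaving out 1 library). In the combined group 1416 were called against TGFβ (328 at that depth, 405 with only the 2 groups, 787 to 1943 leaving out 1 library), 4933 against the inhibitor (2500) and 4321 against control (2065). For the interaction 151 were called (39 at that depth, 306 without the filter, 266 with DESeq2, 483 with voom, 65 to 380 leaving out 1 library). The cause of these moves was not tested, except that thinning and leaving out a library remove counts.

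Replicate numbers did not pair the samples: deviations of same-numbered libraries correlated at -0.0847 to 0.202 in 18 pairs of groups and numbers, 1 of them over 0.1. With the replicate number as a block, *Il1rl1* had a log2 fold change of 5.41 with TGFβ against control and -3.40 in the combined group against TGFβ, and the block changed no call of the family. Depth limits *Il33*, *Il1a* and the groups in which *Il1rl1* and *Il1rn* had 0 to 15 counts per library.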
